A study of Mus musculus with 15 samples.

Results

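The transcription factors through which the circadian clock acts on other genes were examined in the mouse cecum after antibiotic-induced microbiome depletion (AIMD). These were the nuclear receptors Nr1d1 and Nr1d2, the PAR bZIP factors Dbp, Tef and Hlf, the bZIP repressor Nfil3, the basic helix-loop-helix repressors Bhlhe40 and Bhlhe41, and the repressor Ciart. The 9 genes were taken by symbol from a table of 45808 rows and all 9 were found. They were selected on their AIMD and vehicle values within the 2 phases described here, with earlier results of these data known, so that their differences between groups are given as a description and carry no test.

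The mice were wild-type C57BL/6, male, given ampicillin, neomycin, vancomycin, metronidazole and the antifungal amphotericin B by oral gavage 2 times a day for 30 days (AIMD, 7 mice) or water (vehicle, 8 mice), and labelled as 20 weeks old. This label is above the age that the start and length of gavage in the study's methods add up to. RNA came from whole ceca emptied of content, so every value mixes epithelium, muscle, nerve and immune cells, and fewer cells of a type cannot be told apart from less RNA per cell. Within each treatment the mice were split by replicate number into a low phase (AIMD replicates 1 to 3, vehicle replicates 1 to 4) and a high phase (AIMD replicates 4 to 7, vehicle replicates 5 to 8). This split was made with the clock gene levels of these mice known. The labels give no time of day, and the names low and high stand for the level of genes such as Dbp, not for a measured hour. The study modelled time of sacrifice, but which mouse was taken when is not given in the sources used here.

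In the core loop, CLOCK and ARNTL activate genes that carry an E-box, among them the Per and Cry repressors and most of the factors examined here. NR1D1 and NR1D2 (REV-ERBα and REV-ERBβ) repress Arntl and Nfil3 through ROR elements. DBP, TEF and HLF activate genes at D-boxes, where NFIL3 represses, so that the PAR bZIP factors and NFIL3 peak at opposite times of day. In the gut, NFIL3 is known as a link between the clock, the microbiota and epithelial lipid metabolism, and it is also needed for innate lymphoid cells.

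On build GRCm38 (GENCODE annotation) the protein-coding genes lie at chr11:98767932-98775333 (Nr1d1, - strand), chr14:18204054-18239127 (Nr1d2, -), chr7:45705088-45710203 (Dbp, +), chr15:81802421-81826863 (Tef, +) and chr11:90336536-90390895 (Hlf, -). Nfil3 lies at chr13:52967209-52981073 (-), Bhlhe40 at chr6:108660629-108666925 (+), Bhlhe41 at chr6:145858243-145865558 (-) and Ciart at chr3:95878503-95882251 (-).

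Promoters of 300 bases around RefSeq start sites (250 before and 50 after, build GRCm38.p6) were found for 8 of the 9 genes, with 2 for Tef and none for Bhlhe40. The E-box letters CACGTG, searched on both strands, stood in 4 of these 9 promoters, which belong to Ciart, Bhlhe41 and Tef. Of all 32851 promoters in the same table, 7.15% held them. The D-box letters TTATGTAA or TTACGTAA were in 0 of the 9, against 1.06% of all promoters, and the ROR element core TAGGTCA was in 1, that of Nfil3, 12 bases before the start, against 2.61%. A match is a stretch of letters and not a shown binding site. The stretches of the Ciart, Bhlhe41 and Tef promoters that hold no annotated exon of the gene are shown because they hold E-boxes, which are in capitals. Those of Ciart and Bhlhe41 lie before the gene, and that of Tef lies in an intron, before a start inside the gene:
Ciart, GRCm38.p6 chr3:95882252-95882478 (- strand): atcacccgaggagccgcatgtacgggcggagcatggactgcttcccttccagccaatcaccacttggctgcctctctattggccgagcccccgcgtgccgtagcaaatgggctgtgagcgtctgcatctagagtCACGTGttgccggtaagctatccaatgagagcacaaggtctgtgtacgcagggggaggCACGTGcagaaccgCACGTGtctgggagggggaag
Bhlhe41, GRCm38.p6 chr6:145865559-145865670 (- strand): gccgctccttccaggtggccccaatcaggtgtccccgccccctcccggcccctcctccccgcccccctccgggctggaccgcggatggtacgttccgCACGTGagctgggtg
Tef, GRCm38.p6 chr15:81811164-81811413 (+ strand): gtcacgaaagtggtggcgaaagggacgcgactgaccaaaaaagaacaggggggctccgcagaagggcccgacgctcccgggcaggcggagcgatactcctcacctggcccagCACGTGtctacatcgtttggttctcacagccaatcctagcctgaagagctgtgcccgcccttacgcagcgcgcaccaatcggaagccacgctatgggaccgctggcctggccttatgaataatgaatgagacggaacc
Ciart had 3 E-boxes, at 116, 58 and 44 bases before its start. Bhlhe41 had 1, at 153 bases before the start, and Tef had 1 at each of its 2 starts, at 138 bases before the start shown and 127 before the other.

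The libraries held 8676466 to 18102908 reads in AIMD mice and 4370828 to 14402148 in vehicle-treated mice, as recovered from the deposited FPKM (reads scaled to gene length and library size). Vehicle replicate 8 was the shallowest. Its mean correlation with the other mice of its treatment and phase was the lowest of the 15 mice (0.935). Its summed FPKM of 6 smooth muscle markers was 3018, against 877 to 1180 in the other high-phase vehicle mice, and that of 5 neuron and glia markers was 58.2 against 10.6 to 18.6. The high-phase differences of the 9 factors are therefore also given without this mouse. All 6 epithelium markers were detected, with sums of 3368 to 6744 over the mice. A minimum FPKM of 0.5 in 7 or more of the 15 mice left 11971 genes for testing. Of the 9 factors, 7 passed. Ciart did so through the high-phase mice, in which it was high, and Hlf and Bhlhe41 did not pass.

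Between the phases, all 9 factors separated without overlap in both treatments, 8 higher in the high phase and Nfil3 lower. Of all genes tested, 6.52% separated upward and 7.5% downward in vehicle mice, and 7.41% and 7.44% in AIMD mice. The split of the mice was made on such genes, so these counts only describe how far apart the phases were.

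**Figure D1:**
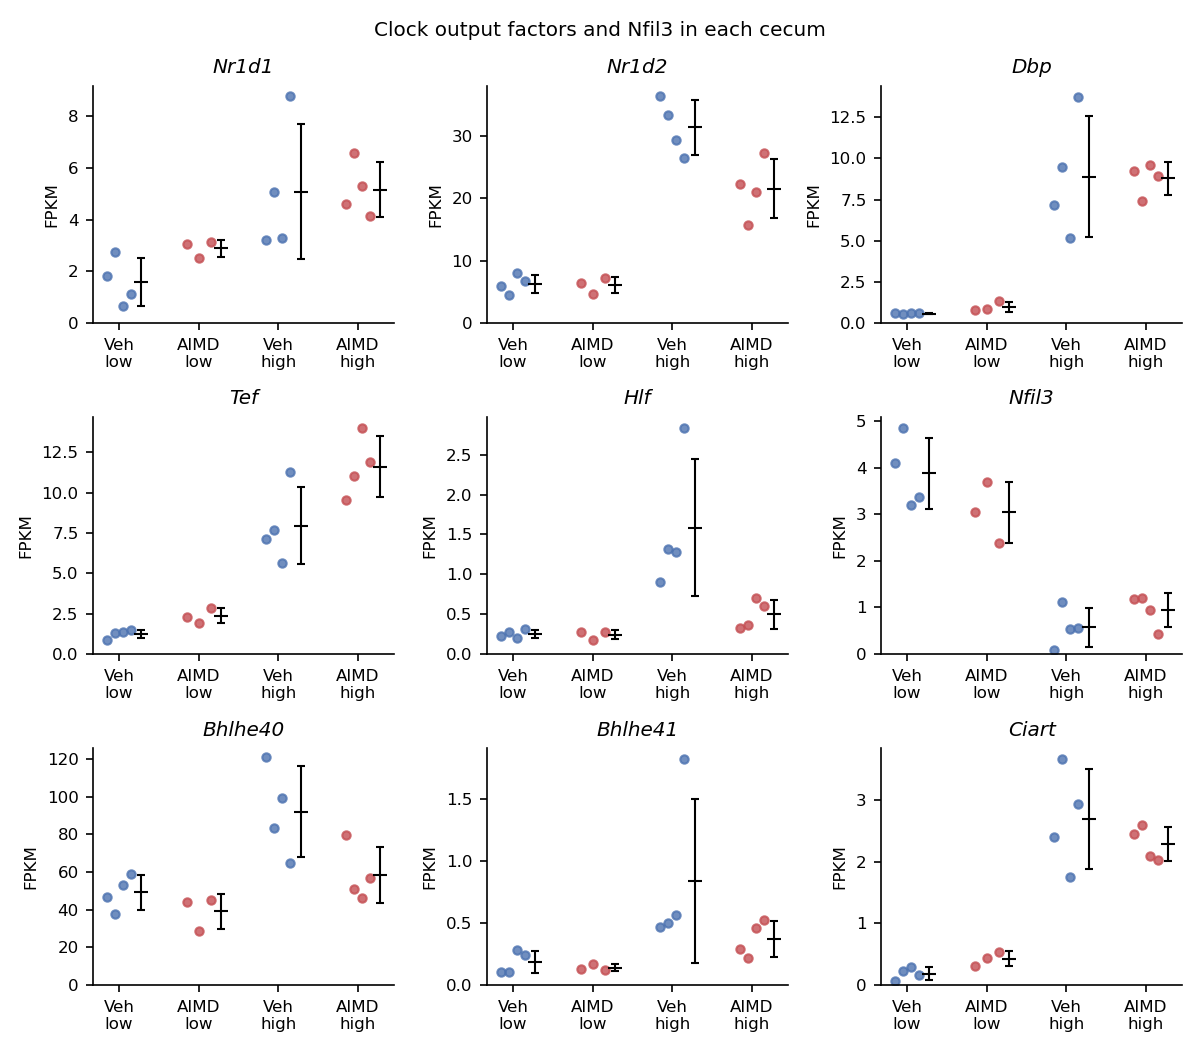
FPKM of the 9 factors in each mouse (points, blue for vehicle and red for AIMD) with the mean and SD beside them (black), in low-phase and high-phase mice (3 to 4 per group). High-phase mice lie above low-phase mice for 8 factors and below them for Nfil3, in both treatments.

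Bhlhe40 was the most highly expressed factor per gene length in all 4 groups, at 39.2 ± 9.28 FPKM (SD, n = 3) in low-phase AIMD mice up to 92.1 ± 24.0 (SD, n = 4) in high-phase vehicle mice. Nr1d2 had rank 2 in every group. The order below them turned with the phase. In low-phase mice Nfil3 had rank 3 in both treatments, and in high-phase mice rank 7 in AIMD and rank 9 in vehicle. It did not stand apart from Nr1d1 in low-phase AIMD mice, nor from Bhlhe41 in high-phase vehicle mice, beyond their spread. In high-phase AIMD mice the means were 11.6 ± 1.88 (SD, n = 4) for Tef and 8.78 ± 0.974 for Dbp. In high-phase vehicle mice they were 7.93 ± 2.39 for Tef and 8.90 ± 3.68 for Dbp. The values of Tef and Dbp overlapped in both groups. Tef per Dbp within a mouse was 1.03 to 1.49 in high-phase AIMD mice and 0.806 to 1.09 in high-phase vehicle mice. In low-phase vehicle mice Ciart (0.187 ± 0.102) and Bhlhe41 (0.185 ± 0.0905) could not be ordered either.

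Of the REV-ERB repressors, Nr1d1 stood at 3.05, 2.52 and 3.12 FPKM in low-phase AIMD mice. In low-phase vehicle mice it stood at 1.81, 2.76, 0.658 and 1.11. The groups overlapped through vehicle replicate 2 alone, which exceeded 1 AIMD mouse. The difference of the means was 0.80 on the log2(FPKM + 0.5) scale (SE 0.33), and the ratio of mean FPKM was 1.82. The log2 difference ranged from 0.56 without vehicle replicate 3 to 1.05 without vehicle replicate 2. In high-phase AIMD mice Nr1d1 was at 4.61, 6.58, 5.32 and 4.15 FPKM. The high-phase vehicle mice had 3.21, 5.07, 3.28 and 8.76. The vehicle values enclosed those of AIMD, the highest being replicate 8, and the log2 difference was 0.11 (SE 0.31), or 0.39 without that mouse.

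Nr1d2 stood at 6.35, 4.67 and 7.18 FPKM in low-phase AIMD mice and at 5.88, 4.53, 8.04 and 6.68 in low-phase vehicle mice. Here the groups lay on top of each other, with a log2 difference of -0.04 (SE 0.21). In high-phase AIMD mice Nr1d2 was at 22.3, 15.7, 20.9 and 27.2 FPKM. In high-phase vehicle mice it was at 36.4, 33.3, 29.3 and 26.5. AIMD replicate 7 was the 1 AIMD mouse above the lowest vehicle mouse, replicate 8. The log2 difference was -0.55 (SE 0.20), the ratio of mean FPKM 0.687, and the difference was -0.62 without vehicle replicate 8. Nr1d2 per Nr1d1 was 1.85 to 2.31 in low-phase AIMD mice and 1.64 to 12.2 in low-phase vehicle mice. In the high phase it was 2.39 to 6.55 in AIMD and 3.02 to 11.3 in vehicle, with overlap in both phases.

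Of the PAR bZIP activators, Tef was higher in AIMD in both phases. In low-phase AIMD mice Tef was at 2.29, 1.94 and 2.85 FPKM, and in low-phase vehicle mice at 0.882, 1.31, 1.34 and 1.46. Every AIMD mouse was above every vehicle mouse, and the log2 difference was 0.71 (SE 0.21) with a ratio of mean FPKM of 1.89. High-phase AIMD mice had Tef at 9.51, 11.0, 14.02 and 11.9 FPKM, and in high-phase vehicle mice at 7.14, 7.66, 5.65 and 11.3. Vehicle replicate 8 was the only vehicle mouse to reach into the AIMD values. The log2 difference of AIMD and vehicle was 0.55 (SE 0.19), the ratio of mean FPKM was 1.46, and the difference was 0.72 without vehicle replicate 8.

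Dbp, the factor with the widest phase difference, was low but distinct in low-phase mice. It was at 0.797, 0.849 and 1.32 FPKM in AIMD and at 0.601, 0.527, 0.596 and 0.580 in vehicle. The groups did not overlap, on 30 to 74 reads per AIMD mouse and 13 to 21 per vehicle mouse. Their log2 difference was 0.45 (SE 0.24) and the ratio of mean FPKM 1.72, the pseudocount of 0.5 being close to the values themselves. In high-phase mice Dbp was at 9.22, 7.39, 9.61 and 8.90 FPKM in AIMD and at 7.17, 9.50, 5.18 and 13.7 in vehicle. The log2 difference was 0.06 (SE 0.22). The AIMD mice all lay inside the vehicle range. Without vehicle replicate 8, AIMD replicate 6 alone stood above that range, at 9.61 against 9.50 FPKM. The difference was 0.28 without vehicle replicate 8 and -0.16 without vehicle replicate 7.

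Hlf went the other way in the high phase. High-phase AIMD mice had 0.324, 0.368, 0.706 and 0.598 FPKM. High-phase vehicle mice had 0.899, 1.32, 1.28 and 2.84, all above every AIMD mouse. These values rested on 18 to 62 reads in AIMD and 31 to 83 in vehicle, and Hlf did not pass the filter. The log2 difference was -0.996 (SE 0.22) and the ratio of mean FPKM 0.315. The difference was -0.74 without vehicle replicate 8, the highest mouse, and -1.67 as a log2 ratio of mean FPKM with no pseudocount. In low-phase mice Hlf was at 0.274, 0.175 and 0.276 FPKM in AIMD and at 0.224, 0.277, 0.202 and 0.309 in vehicle, and the groups overlapped with a log2 difference of -0.02 (SE 0.24). Thus in high-phase mice the members of this family stood on either side of the vehicle mean, with Tef higher and Hlf lower. The difference of Dbp was near 0 and took either sign when 1 mouse was left out.

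**Figure D2:**
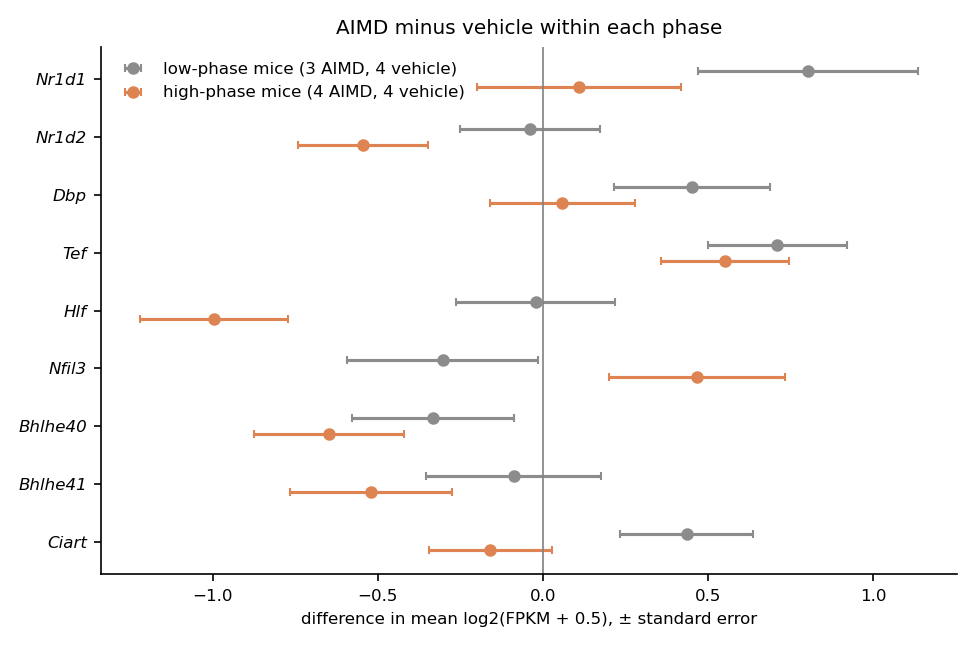
Difference of AIMD and vehicle means on the log2(FPKM + 0.5) scale with its standard error, for low-phase mice (grey) and high-phase mice (orange). In the high phase Tef lies at 0.55 and Hlf at -0.996, and in the low phase the values run from -0.33 (Bhlhe40) to 0.80 (Nr1d1).

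Nfil3, which competes with the PAR bZIP factors for the D-box, ran opposite to them between the phases. It was at 3.05, 3.70 and 2.39 FPKM in low-phase AIMD mice and at 4.10, 4.86, 3.20 and 3.37 in low-phase vehicle mice. The groups overlapped and the log2 difference was -0.30 (SE 0.29). High-phase AIMD mice had Nfil3 at 1.19, 1.21, 0.939 and 0.428 FPKM, and in high-phase vehicle mice at 0.0956, 1.11, 0.528 and 0.564. These vehicle values rested on 1, 21, 7 and 5 reads, and those of AIMD on 10 to 33. This gave a log2 difference of 0.47 (SE 0.27). It was 0.21 without vehicle replicate 5, the mouse with 1 read, 0.49 without vehicle replicate 8, and 0.80 with a pseudocount of 0.1, so that at this depth the high-phase level of Nfil3 was poorly fixed.

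The balance between D-box activators and their repressor was described by the sum of Dbp, Tef and Hlf FPKM divided by Nfil3 FPKM. In low-phase mice this ratio was 1.10, 0.800 and 1.86 in AIMD and 0.417, 0.435, 0.668 and 0.698 in vehicle, without overlap. In high-phase mice it was 16.1, 15.5, 25.9 and 49.9 in AIMD and 159, 16.6, 23.0 and 49.4 in vehicle, and the highest of these had the Nfil3 value of 1 read. The groups overlapped there. The share of Tef in this sum of mRNA levels restates the Tef, Dbp and Hlf values given above and carries no test. Tef made up 49.9 to 58.7% of the summed FPKM in high-phase AIMD mice and 40.5 to 47.0% in high-phase vehicle mice, and 64.1 to 68.2% against 51.7 to 62.7% in low-phase mice, with no overlap in either phase.

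**Figure D3:**
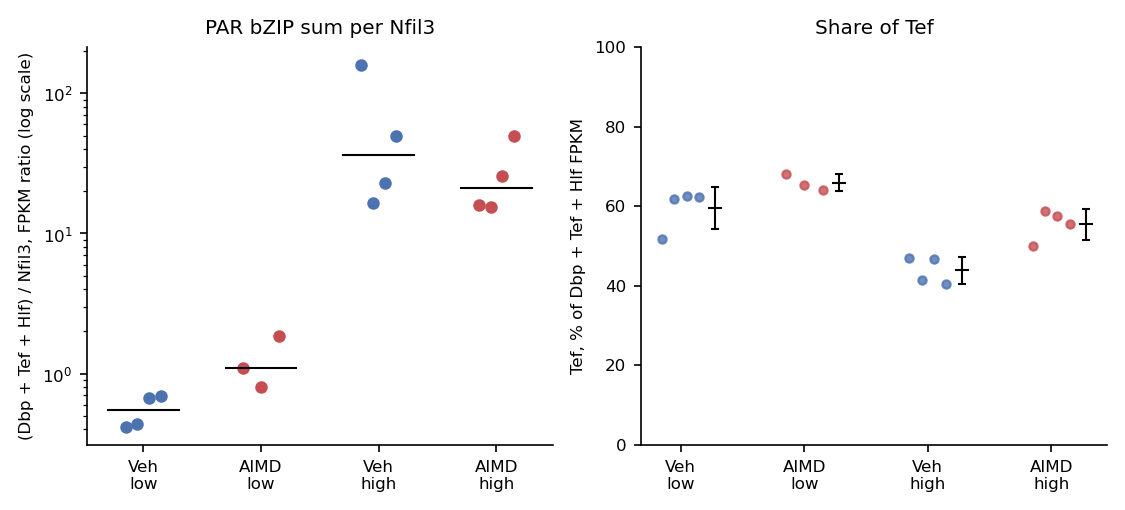
Left, the FPKM of Dbp, Tef and Hlf together per FPKM of Nfil3 in each mouse on a log axis, with the median as a line. Right, the percent of the summed PAR bZIP FPKM that came from Tef, with the mean and SD, where AIMD mice (red) lie above vehicle mice (blue) within each phase, at 49.9 to 58.7% against 40.5 to 47.0% in the high phase.

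The BHLHE40 and BHLHE41 repressors (DEC1 and DEC2), which compete with CLOCK and ARNTL for E-boxes, were the most abundant and one of the scarcest of the 9 factors. Bhlhe40 was at 43.8, 28.5 and 45.2 FPKM in low-phase AIMD mice and at 46.6, 37.6, 53.1 and 59.1 in low-phase vehicle mice, with overlap and a log2 difference of -0.33 (SE 0.25). In high-phase AIMD mice it was at 79.5, 51.0, 45.9 and 56.7 FPKM, and in high-phase vehicle mice at 121, 83.4, 99.2 and 64.5. AIMD replicate 4 alone stood above the lowest vehicle mouse. The log2 difference was -0.65 (SE 0.23), the ratio of mean FPKM 0.633, and the difference -0.81 without vehicle replicate 8.

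Bhlhe41 was scarce, at 0.118 to 0.173 FPKM in low-phase AIMD mice and 0.106 to 0.280 in low-phase vehicle mice, with a log2 difference of -0.09 (SE 0.26). In high-phase AIMD mice it was at 0.288, 0.214, 0.462 and 0.527 FPKM. In high-phase vehicle mice it was at 0.464, 0.498, 0.561 and 1.82, the last being replicate 8. The log2 difference of -0.52 (SE 0.24) shrank to -0.22 without that mouse. Bhlhe41 also shared 1280 exon bases with a gene on the opposite strand, and whether the counting used strand is not given in the sources used here. The same holds for Dbp, with 539 exon bases shared with Sphk2, for Nr1d1, with 263 shared with Thra, and for Tef and Bhlhe40, with 193 and 118 shared with antisense genes.

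Ciart, a repressor of CLOCK and ARNTL also called CHRONO, was at 0.304, 0.442 and 0.536 FPKM in low-phase AIMD mice. It was at 0.0602, 0.229, 0.298 and 0.159 in low-phase vehicle mice. All 3 AIMD mice were above the vehicle mice, the nearest pair by only 0.304 against 0.298, on 12 to 23 reads in AIMD and 1 to 7 in vehicle. Its log2 difference was 0.44 (SE 0.20), and 1.19 as a log2 ratio of mean FPKM with no pseudocount. In high-phase mice Ciart was at 2.44, 2.60, 2.09 and 2.03 FPKM in AIMD and at 2.40, 3.66, 1.76 and 2.93 in vehicle, and the AIMD values lay within those of vehicle. The log2 difference there was -0.16 (SE 0.19), and -0.11 without vehicle replicate 8.

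Counted together, 3 of 9 factors (Dbp, Tef and Ciart) stood higher in every low-phase AIMD mouse than in every low-phase vehicle mouse, and 0 stood lower. Of the 11971 genes tested, 16.1% separated upward and 13.6% downward in the same mice. In the high phase 0 factors separated upward and 1, Hlf, downward, where 14.5% and 10.9% of all genes did. Since the factors were chosen with these contrasts known, nothing is read from the counts. Without vehicle replicate 8, Tef separated upward and Nr1d2, Hlf and Bhlhe40 downward, against 20.2% and 18.2% of all genes. Bhlhe40 also separated downward without AIMD replicate 4 (15.9% of all genes), as did Nr1d2 and Bhlhe41 without AIMD replicate 7 (12.4%). Genes that separate with all mice stay separated when 1 is left out. For Dbp, Tef and Ciart in the low phase, leaving mice out therefore adds nothing. Nr1d1 upward and Nfil3 downward joined them without AIMD replicate 2 (19.4% and 16.7% of all genes). Without vehicle replicate 2, Nr1d1 upward and Bhlhe40 downward joined them (21.4% and 17.7%). The median log2 difference over the 9 was -0.02 in the low phase and -0.16 in the high phase, and over all genes tested it was 0.00 and 0.02.

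The distance between the phases was described within each treatment. In vehicle-treated mice the log2 difference of high and low phase was 3.04 for Dbp, 2.25 for Nr1d2, 2.24 for Tef, 2.18 for Ciart, 1.42 for Nr1d1 and 1.39 for Hlf. It was 0.88 for Bhlhe40, 0.86 for Bhlhe41 and -2.09 for Nfil3. In AIMD mice the same difference was 2.65 for Dbp, 2.08 for Tef, 1.74 for Nr1d2 and 1.59 for Ciart. It was 0.72 for Nr1d1, 0.57 for Bhlhe40, 0.43 for Bhlhe41, 0.41 for Hlf and -1.32 for Nfil3. The size was smaller in AIMD for 9 of 9 factors. It was also smaller in AIMD for 63.3% of all genes tested, and for 97.6% of the 1145 other genes with a limma adjusted p under 0.05 between the phases in vehicle mice, a choice that favours large differences in vehicle.

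**Figure D4:**
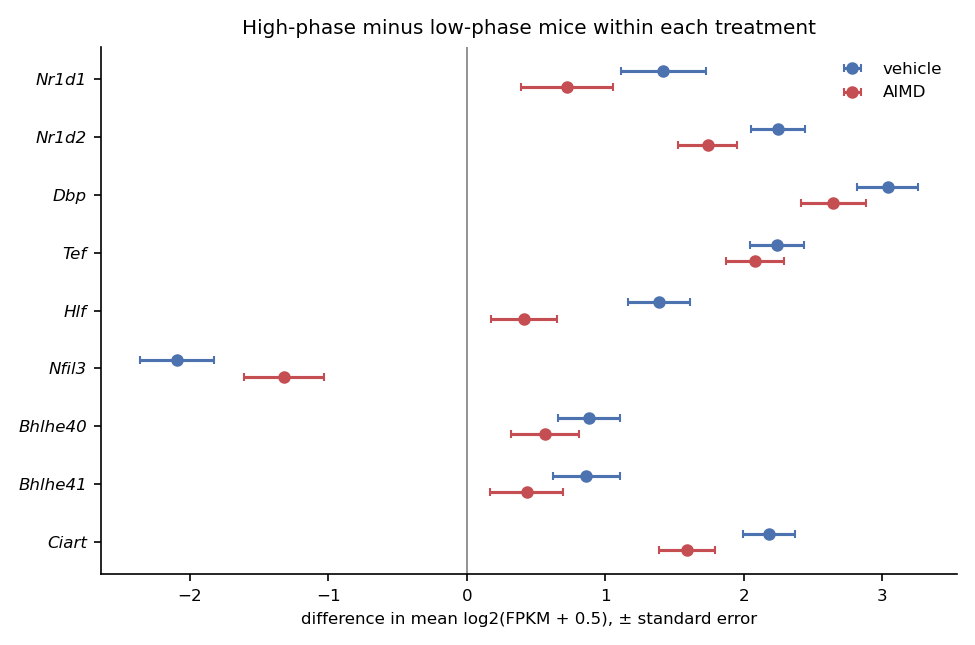
Difference of high-phase and low-phase means on the log2(FPKM + 0.5) scale with its standard error, in vehicle (blue) and AIMD (red) mice. The AIMD value lies nearer to 0 for all 9 factors, for example 0.41 against 1.39 for Hlf and 2.65 against 3.04 for Dbp.

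The difference between the treatment effects of the phases was tested over all genes past the filter. These include 7 of the 9 factors, for which nothing is read from this test. Of 11971 genes, 0 passed an adjusted p of 0.05 for the interaction in limma, with 534 at an unadjusted p under 0.05, and limma voom on the recovered reads also gave 0, with 594. Within the phases, limma called 13.3% of all genes in low-phase mice (7.62% higher and 5.69% lower in AIMD) and 29.9% in high-phase mice (16.3% higher and 13.6% lower). Averaged over the phases it called 40.8% (21.7% higher and 19% lower).

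Of the core clock genes, 8 of 9 were tested, and averaged over the phases 2 rose and 2 fell in AIMD. Cry1, a repressor of CLOCK and ARNTL, rose most. It was at 23.1 ± 5.01 FPKM (SD, n = 3) in low-phase AIMD mice and 8.94 ± 1.04 (SD, n = 4) in low-phase vehicle mice. The log2 fold change was 1.31 (SE 0.17, limma adjusted p = 0.000239) in the low phase and 0.74 (SE 0.16, adjusted p = 0.00369) in the high phase. Arntl, the partner of CLOCK, stood at 7.43 ± 1.78 FPKM in high-phase AIMD mice and 4.22 ± 0.251 in high-phase vehicle mice (SD, n = 4 each). It rose by 0.72 (SE 0.16, limma adjusted p = 0.00386) in the high phase, and its low-phase value was 0.25 (adjusted p = 0.359). Averaged over the phases its limma adjusted p was 0.00413, but 0.418 with no phase in the model. Npas2, the partner of ARNTL related to CLOCK, fell by 0.57 in the high phase (limma adjusted p = 0.0215). This was lost without AIMD replicate 6 or vehicle replicate 7, and with the replicate number as a block. Per3 fell by 0.53 in the high phase (limma adjusted p = 0.0194). This was lost without AIMD replicate 5, with a pseudocount of 0.1 and with the replicate number as a block. Its call averaged over the phases (limma adjusted p = 0.0373) was lost when AIMD replicate 1, 2, 5 or 6 or vehicle replicate 3, 4, 7 or 8 was left out. That call was also lost with a pseudocount of 0.1, no filter, the replicate number as a block, no phase in the model and limma voom. Per1, Per2, Cry2 and Clock did not pass in any contrast, and Rora was below the filter. The phases were split with the clock gene levels of these mice known, and the hour of each mouse is not given. For these and other rhythmic genes, a different hour in AIMD and vehicle mice of a phase cannot be told apart from the treatment.

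Of the genes known as targets of the PAR bZIP factors, mostly from liver, 7 of 8 were tested, and averaged over the phases 3 rose and 2 fell in AIMD. Por, the electron donor of microsomal P450 enzymes, fell in both phases. It was at 9.56 ± 1.14 FPKM in low-phase AIMD mice against 31.5 ± 9.37 in vehicle, and at 12.2 ± 2.76 against 36.4 ± 9.26 in the high phase. The log2 fold changes were -1.61 (SE 0.26, limma adjusted p = 0.00106) and -1.53 (SE 0.24, adjusted p = 0.000484). Abcb1a, a drug efflux pump, fell by 0.77 in the low phase (limma adjusted p = 0.0169, lost without AIMD replicate 1 or 2 or vehicle replicate 3), and averaged over the phases by 0.63 (adjusted p = 0.00168). Ppara, the fatty acid sensing nuclear receptor, rose by 0.47 averaged over the phases (limma adjusted p = 0.00361) and Nr1i3, the xenobiotic receptor CAR, by 0.64 (adjusted p = 0.0131). Slc15a1, the peptide transporter PEPT1, rose by 1.41 averaged over the phases (limma adjusted p = 0.0221). This was lost without AIMD replicate 1, with no filter and with no phase in the model. Its low-phase value was 2.17 (limma adjusted p = 0.0431), lost without AIMD replicate 1, 2, 3 or 7 or vehicle replicate 1, 2, 3, 4 or 7. That call was also lost with a pseudocount of 1, no filter, the replicate number as a block, a robust prior and limma voom. The high-phase value was 0.66 (adjusted p = 0.443). Alas1 and Pdxk did not pass in any contrast, and Cyp2b10 was below the filter.

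Of the lipid genes tied to NFIL3 in intestinal epithelium, 3 of 4 were tested, and averaged over the phases 0 rose and 2 fell. Scd1, the stearoyl-CoA desaturase, was at 16.7 ± 5.17 FPKM in low-phase AIMD mice against 73.5 ± 18.2 in vehicle, and at 22.1 ± 3.93 against 80.4 ± 11.2 in the high phase. It fell by 2.11 (limma adjusted p = 5.69e-05) and by 1.84 (adjusted p = 6.99e-05) on the log2 scale. Cd36, the fatty acid transporter, fell by 1.08 in the high phase (limma adjusted p = 0.0106) and was at -0.16 in the low phase (adjusted p = 0.767). Its averaged fall of 0.62 (limma adjusted p = 0.0261) was lost when AIMD replicate 1, 3 or 5 or vehicle replicate 4 or 7 was left out. The same fall was lost with no filter and with the replicate number as a block. Nfil3 itself overlapped between the treatments in both phases. Fabp4 did not pass and Cyp2e1 was below the filter.

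Of genes that are rhythmic in many tissues, 9 of 10 were tested, and averaged over the phases 3 rose and 2 fell. Usp2, a ubiquitin protease with rhythm in many organs, was at 13.4 ± 3.16 FPKM in high-phase AIMD mice against 26.4 ± 2.59 in vehicle and fell by 0.97 (SE 0.18, limma adjusted p = 0.00154). Tsc22d3, a glucocorticoid-induced gene also called GILZ, fell by 0.86 in the high phase (limma adjusted p = 0.00584). Klf9, another glucocorticoid-responsive gene, rose by 1.11 averaged over the phases (SE 0.22, limma adjusted p = 0.00121). Fkbp5, also glucocorticoid-induced, rose by 0.45 (limma adjusted p = 0.0263, lost without AIMD replicate 1 or vehicle replicate 7) and Nampt, the rate-limiting enzyme of NAD salvage, by 0.64 (adjusted p = 0.00518). Wee1, a cell cycle kinase with a known E-box, was below the filter, at 0.348 to 0.471 FPKM over the vehicle mice and 0.495 to 4.196 over the AIMD mice.

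**Figure D5:**
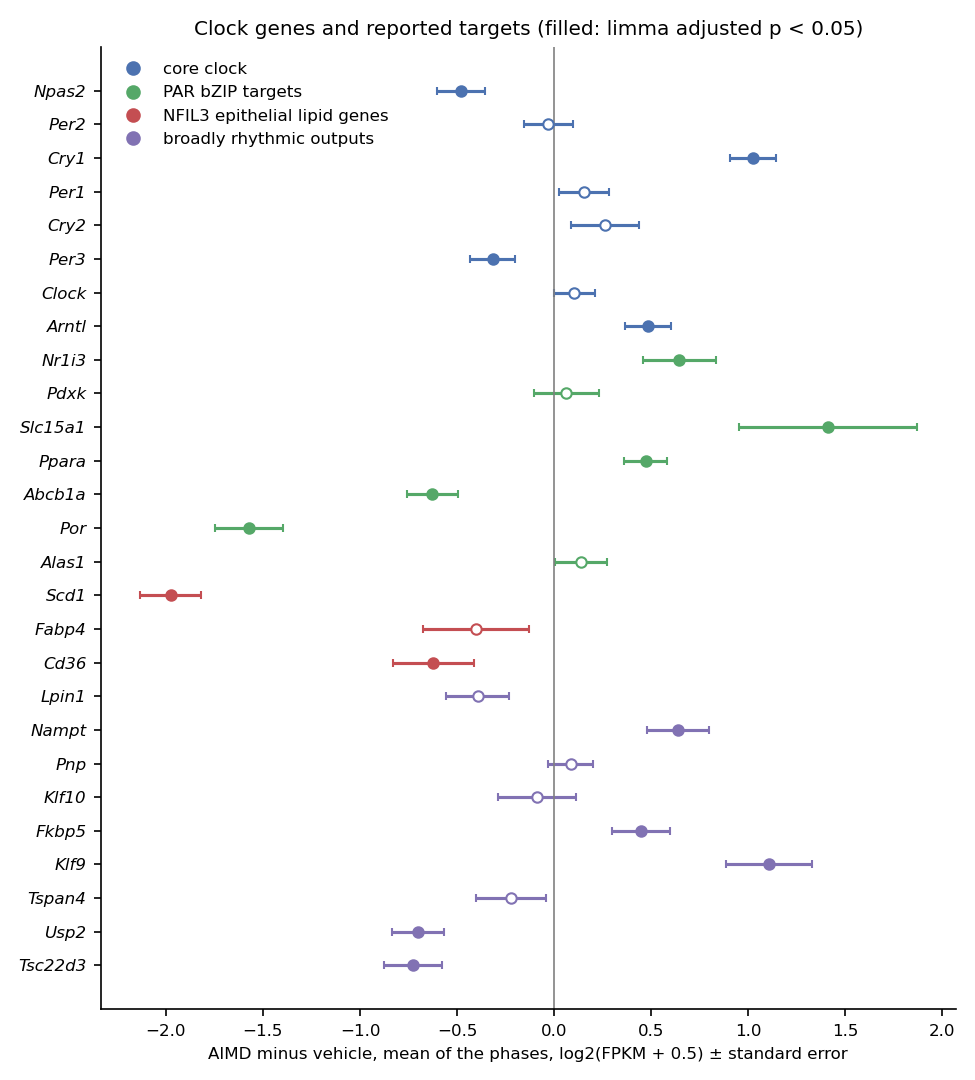
AIMD minus vehicle, averaged over the phases, on the log2(FPKM + 0.5) scale with its standard error, for the tested genes of the 4 lists. Filled points passed a limma adjusted p of 0.05, with Cry1 at 1.02 and Klf9 at 1.11 highest among the clock genes and rhythmic outputs, and Scd1 at -1.98 and Por at -1.57 lowest.

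Markers of other cells were summed in FPKM beside these results. The 5 neuron and glia markers, of which 3 were tested, summed to 2.22 to 3.70 over high-phase AIMD mice and 10.6 to 58.2 over high-phase vehicle mice, and all 3 fell there in limma. In the low phase they summed to 2.90 to 3.69 against 3.30 to 13.98, with 0 of 3 called. The 6 smooth muscle markers summed to 213 to 793 against 877 to 3018 in the high phase, with 1 of 6 falling, and to 549 to 813 against 517 to 1373 in the low phase, with 0 called. The sums of nerve and muscle markers thus separated the treatments in the high phase and overlapped in the low phase. Of the single muscle markers only Tagln separated in the high phase, at 95.9 to 278 FPKM in AIMD against 389 to 1136 in vehicle. The 5 myeloid markers summed to 99.0 to 214 in high-phase AIMD mice against 43.4 to 61.2 in vehicle, with 2 of 5 rising, and to 53.6 to 118.9 against 32.0 to 57.0 in the low phase, with 1 of 5 rising. The 9 lymphoid markers, of which 5 were tested, summed to 4.95 to 11.7 in low-phase AIMD mice against 11.3 to 21.2 in vehicle, with 2 falling, and to 10.1 to 19.6 against 10.0 to 28.4 in the high phase, with 0 called. The 6 epithelial markers summed to 4536 to 5633 against 3368 to 4016 in the low phase, with 0 called, and to 4150.2 to 6744 against 4077 to 5357 in the high phase, with 1 rising. Averaged over the phases 4 of the 6 rose. The 5 fibroblast markers summed to 34.7 to 79.9 in high-phase AIMD mice against 62.5 to 101.8 in vehicle, with 1 falling, and to 33.5 to 48.4 against 24.6 to 54.5 in the low phase, with 0 called. Averaged over the phases 1 fibroblast marker, Col3a1, rose and 0 fell. The 3 adipocyte markers, of which 2 were tested, summed to 11.3 to 18.2 against 10.9 to 35.7 in the high phase, with 1 falling, and to 12.7 to 16.0 against 11.0 to 20.2 in the low phase, with 0 called. Most of these sums was Cidec, at 11.2 to 18.2 FPKM in high-phase AIMD mice and 10.4 to 32.8 in vehicle. The marker that fell in the high phase was Adipoq, at 0 to 0.110 FPKM against 0.156 to 4.07, on 0 to 2 reads against 2 to 29. Il22 was listed at 0 in all high-phase AIMD mice, and Plin1 in all AIMD mice. The part of these markers in the differences of the 9 factors was not tested.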

How the data were processed

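Poly-A RNA of 7 AIMD and 8 vehicle ceca was sequenced as stranded libraries with 50-base single reads. The authors mapped reads to GRCm38 with STAR, counted them with featureCounts and GENCODE genes, and deposited FPKM values per mouse and gene symbol. How counts became FPKM, and whether counting used strand, is not given in the sources used here. Of 45808 rows, 27 had symbols turned into dates and 4 were left out as repeated symbols.

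Median-of-ratios size factors were applied to the FPKM and were 1.01 in every mouse. On log2(FPKM + 0.5), limma 3.58.1 in R 4.3.3 fitted 4 groups (treatment by phase) with a trended prior, and p-values were adjusted by Benjamini-Hochberg over 11971 genes (minimum FPKM of 0.5 in 7 or more mice), at a threshold of 0.05. A fold change on this scale understates the change of low genes. Hlf and Bhlhe41 failed this filter and were fitted with all 9 factors kept. Whole reads were recovered for 24270 of 24279 genes, within a tolerance of 0.02 reads, 68.1% of the genes with GENCODE M21 exon lengths. These reads are counts up to the gene length assumed. The replicates are separate mice. The factors, gene lists and phases were chosen with earlier results of these data known. All 9 factors were named, and list genes were named where they passed in any contrast. A gene written in the core clock list at first is not reported here and is not among its 9. The fit was tested on simulated data. Alternatives were other pseudocounts, filters and scalings, a replicate block, a robust prior, models without the phase or with it as an additive factor, and each mouse left out. limma voom on recovered reads, log2 ratios of means and counts of separated factors without each mouse were added after seeing the data.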

Additional observations from a re-analysis of the deposited data

Results flagged for a closer look

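Bhlhe41 in vehicle replicate 8 stood at 1.82 FPKM, on 50 reads, while the other high-phase vehicle mice had 0.464 to 0.561. Its gap to the nearest of them took up 0.929 of the group's range, above the critical value of Dixon's test for 4 mice. Of 27 groups of values examined in this way this was the only one, and chance flags about 1 in 20 such groups.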

How the results depend on the processing

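The number of genes called in low-phase mice was 1593 and ran from 631 (without AIMD replicate 1) to 2278 when 1 mouse was left out. It was 798 without AIMD replicate 2 and 929 without vehicle replicate 1. The high-phase number, 3574, ran from 2343 (without AIMD replicate 6) to 4197 (without vehicle replicate 8). The interaction gave 0 genes, 2 with no filter, and 0 to 2 with 1 mouse left out, 2 without vehicle replicate 6. Of the differences of the 9 factors under the alternatives, 430 moved by less than the spread between mice and 12 by more. The 12 were of Dbp, Hlf, Bhlhe41 and Ciart, under another or no pseudocount, quantile normalization or limma voom. Differences near 0 (Nr1d2 and Hlf in the low phase, Nr1d1 and Dbp in the high phase) took either sign when 1 mouse was left out. Of the values of the listed genes, 1074 kept their side of the threshold, 103 lost a call and 7 gained one, and no called value changed direction. Fits with the replicate number as a block gave 1577 low-phase and 3678 high-phase genes, but same-numbered mice of the treatments did not deviate together (r from -0.414 to 0.106), so the numbers are not taken to pair them. Nfil3 on 1 to 21 reads in high-phase vehicle mice and Ciart on 1 to 7 in low-phase vehicle mice are limited by depth.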

Other observations

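Over the 15 mice, the gene whose log2 level was most like that of Dbp, among 10361 compared, was Per2 (Pearson r = 0.953), followed by Per3 (0.951). Within the 7 low-phase mice the same r was 0.622 and 0.119, and within the 8 high-phase mice 0.151 and 0.166. Nr1d1 was most like Cry2 (0.886), with 0.661 within the 7 low-phase mice and 0.915 within the 8 high-phase mice. Nfil3 was most like Eral1 (0.952), with 0.841 and 0.894 within the phases. The mice share treatment, phase and depth, and these values are given as a description.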
